A study of Mus musculus with 12 samples.

Results

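In the H4K8ac peak lists of cells sorted by a Pdgfra reporter, the mark was followed at 9 of 21631 protein-coding genes, chosen by name for the fibroblast programme: Col1a1, Col1a2, Col3a1, Lum, Dcn, Fbln1, Igf2, Pdgfrb and Slc6a13. They are genes of cells that share Pdgfra activity with oligodendrocyte progenitor cells (OPCs). A peak was counted for a gene where the authors' annotation gave it to that gene. Together they received 30 of 269580 peaks over 6 libraries, 11 of them in neonatal replicate 2 and 19 in the adult libraries, and 3 of the 9 received none.

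The mark, an acetyl group on lysine 8 of histone H4, was mapped by ChIP-seq (chromatin immunoprecipitation followed by sequencing) in primary OPCs sorted from the forebrain of PdgfrαH2BEGFP mice, which carry a nuclear green fluorescent protein under the control of Pdgfra. The neonatal group came from postnatal day 5 and the adult group from postnatal day 60, with 3 biological replicates each, and both groups carry the same reporter and were immunoprecipitated with the same antibody. The 6 input samples were not analysed here. Sex, the number of mice behind a replicate, any marker used in the sort besides the reporter, and the handling of the meninges are not given in the sources used here.

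Pdgfra encodes a receptor for platelet-derived growth factor. In the brain it is a standard marker of OPCs, the dividing glia that give rise to oligodendrocytes, but it is also active in fibroblasts of the meninges and of the spaces around vessels. A reporter driven by Pdgfra can therefore label both. Fibroblasts build the extracellular matrix: type I and type III collagen form fibrils, lumican and decorin are small proteoglycans that bind those fibrils, and fibulins are glycoproteins of the matrix. Acetylated histone H4 is generally found at active promoters and enhancers, so a peak at these genes is a readout of chromatin in whichever sorted cells carry it. In a bulk library, a strong mark in few cells and a weak mark in many cannot be told apart.

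Sequence upstream of 3 of the genes is shown because they span the range seen here: Fbln1 had a promoter peak in 4 libraries, Col1a2 in 2 and Col3a1 in none. The sequences are from RefSeq on GRCm38.p6, plus strand, 5′ to 3′, and end before the first start site known from RefSeq or the deposited transcripts. Capitals mark CpG dinucleotides.
Fbln1, chr15:85205699-85205948: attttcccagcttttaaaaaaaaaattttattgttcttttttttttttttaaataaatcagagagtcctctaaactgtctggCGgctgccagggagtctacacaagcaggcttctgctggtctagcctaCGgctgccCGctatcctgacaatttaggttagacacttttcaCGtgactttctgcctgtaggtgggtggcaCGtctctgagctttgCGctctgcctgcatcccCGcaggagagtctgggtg
Col1a2, chr6:4505368-4505492: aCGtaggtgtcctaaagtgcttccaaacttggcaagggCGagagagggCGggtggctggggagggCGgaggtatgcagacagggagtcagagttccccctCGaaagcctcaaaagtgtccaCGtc
Col3a1, chr1:45311288-45311537: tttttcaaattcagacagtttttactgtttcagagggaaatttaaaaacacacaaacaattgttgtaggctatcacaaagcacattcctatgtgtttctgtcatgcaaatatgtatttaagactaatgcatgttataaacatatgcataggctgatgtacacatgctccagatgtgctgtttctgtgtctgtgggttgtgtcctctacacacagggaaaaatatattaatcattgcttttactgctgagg

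The 250 bases before Col3a1 hold 0 CpGs, as do 7.87% of all RefSeq promoter windows over the same stretch. Those before Fbln1 hold 7 CpGs, against a median of 6. The 125 bases shown for Col1a2 hold 6 CpGs, more than 73.3% of windows over the same stretch. RefSeq windows, which run from 250 bases before a start to 50 after it, were found for 5 of the 9 genes. The windows that overlapped a peak in neonatal replicate 2 belonged to Col1a2 (13 CpGs), Slc6a13 (7), Igf2 (24) and Fbln1 (12 and 24 in overlapping windows), where the median of all 32851 windows was 7. The windows that overlapped no peak belonged to Slc6a13 (11 and 2 CpGs), Igf2 (2, 14 and 7) and Col3a1 (0). Short promoter motifs were looked for on both strands, and no motif contains the letters of another. The CCAAT box (letters CCAAT) is held by 37.4% of all windows, the GC box (letters GGGCGG) by 35.7% and the TATA box (letters TATAAA) by 13.6%. Among the windows that overlapped a peak, the Col1a2 window was the only one with both a CCAAT box and a GC box. A TATA box was found in the Col3a1 window and in none of the other 10 windows.

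Neonatal replicate 2 was the 1 neonatal library with any peak at these genes. Its 11 peaks lay on 6 genes, Col1a1, Col1a2, Fbln1, Igf2, Pdgfrb and Slc6a13, each with a promoter peak, meaning a peak the authors placed within 3000 bp of a transcription start site (TSS). Neonatal replicates 1 and 3 had 0 peaks at all 9 genes. Adult replicates 1, 2 and 3 had promoter peaks on 2, 3 and 2 genes: Col1a1 and Fbln1 in each, and Col1a2 in replicate 2. The mean was 2.00 ± 3.46 genes (SD, n = 3) in neonatal and 2.33 ± 0.577 (SD, n = 3) in adult libraries, and the ages overlapped. Without neonatal replicate 2 the adult mean exceeded the neonatal mean by 2.33 genes in place of 0.33.

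**Figure D1:**
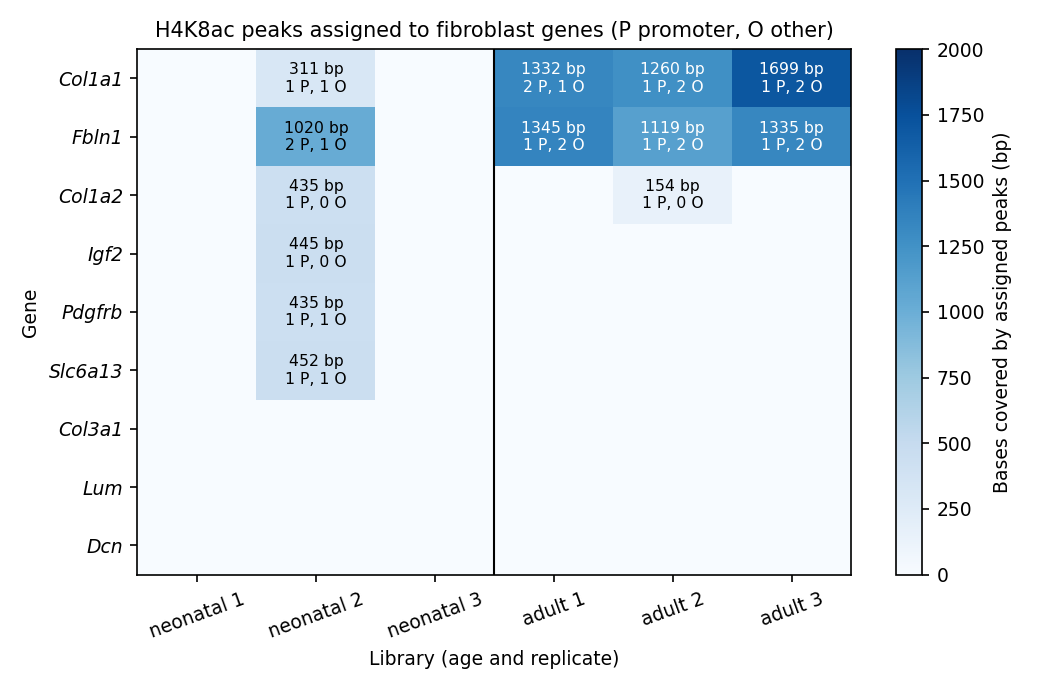
Bases covered by H4K8ac peaks assigned to each fibroblast gene (rows) in each library (columns), with the number of promoter (P) and other (O) peaks written in each filled cell. Neonatal replicates 1 and 3 are empty, neonatal replicate 2 has 6 filled genes, and Col1a1 and Fbln1 are filled in all 3 adult libraries.

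These counts are read against the share of all protein-coding genes with a promoter peak. For neonatal replicates 1, 2 and 3 that share was 26.4%, 53.3% and 23.5%, and for adult replicates 1, 2 and 3 it was 56.3%, 54.4% and 55.2%. The 6 of 9 in neonatal replicate 2, 66.7%, was near its background. The adult values of 22.2%, 33.3% and 22.2% lay below theirs, and the values of 0 lay below theirs in neonatal replicates 1 and 3. Neonatal replicate 2 and the adult libraries thus marked similar shares of all promoters, while the fibroblast genes had 6 promoters marked in the former and 2 or 3 in the latter. The lists differ in length, with 9097, 31189 and 7353 peaks in the neonatal and 72278 to 77002 in the adult libraries, and read numbers are not in the files.

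The lists were also cut to equal lengths. Among the 31189 strongest peaks by p-value, a length chosen after the data had been seen, promoter peaks lay on 6 of the 9 genes in neonatal replicate 2 and on 0, 1 and 2 in adult replicates 1, 2 and 3. Some other lists stood in the same order at that length. OPC genes had 12 of 12 promoters marked in neonatal replicate 2 and 9, 9 and 8 in the adult libraries. Collagen processing genes had 10 of 12 and 7, 7 and 7. A second list of fibroblast genes had 13 of 20 against 5, 3 and 3, and pericyte and smooth muscle genes 5 of 12 against 0 in each adult library. The remaining lists did not stand in that order. Endothelial genes had 2 of 12 against 1, 1 and 2, and microglial genes 0 of 12 against 1, 0 and 1. The background shares were 53.3% in neonatal replicate 2 and 49.1%, 46.5% and 48.0% in the adult libraries. Among the 7353 strongest peaks, Fbln1 in neonatal replicate 2 was the only promoter left, with 0 in each of the other 5 libraries, a difference of 1 gene. At this length OPC genes had 12, 10 and 10 of 12 in the neonatal and 5 in each adult library. The second fibroblast list had 4, 3 and 1 of 20 against 0 in each adult library. Collagen processing genes had 2, 4 and 3 of 12 against 5 in each adult library. Pericyte and smooth muscle, endothelial and microglial genes had 0 in every library. The background was then 23.0%, 27.2% and 23.5% in the neonatal and 26.4%, 23.1% and 23.9% in the adult libraries. Peaks at the 9 genes numbered 3.53 per 10000 peaks in neonatal replicate 2 and 0.83, 0.96 and 0.78 in adult replicates 1, 2 and 3. The neonatal mean of 1.18 ± 2.04 and the adult mean of 0.857 ± 0.0929 per 10000 peaks (SD, n = 3 each) differed by less than the neonatal spread. Without neonatal replicate 2, the direction turned, and adult libraries had 0.86 more per 10000 peaks.

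**Figure D2:**
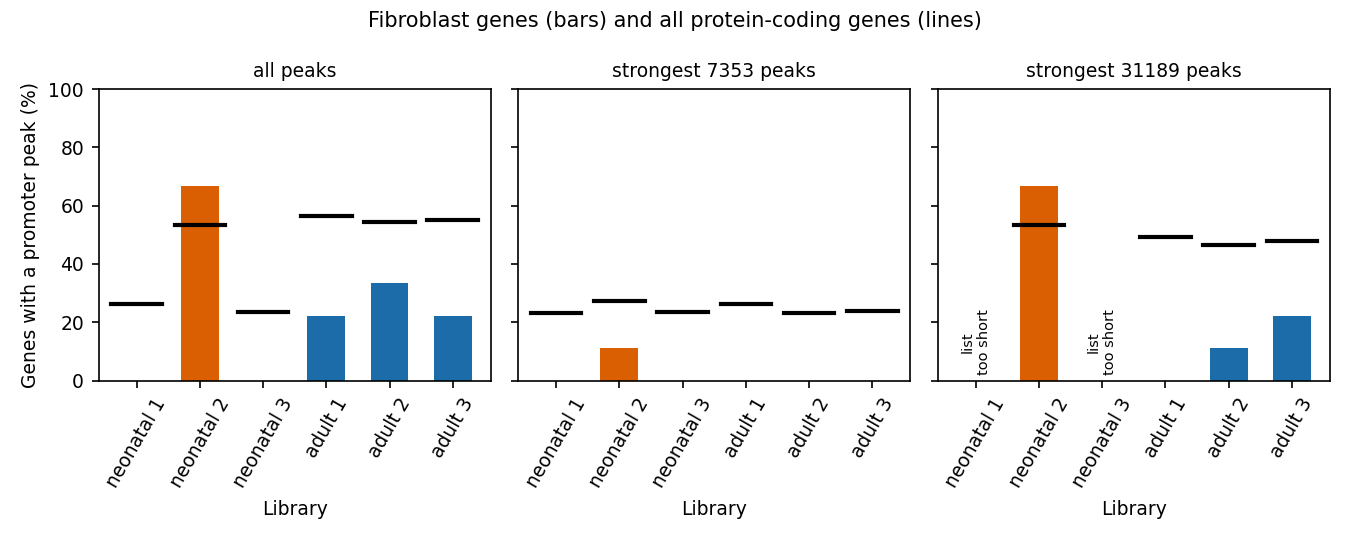
Share of the 9 fibroblast genes (bars, orange neonatal, blue adult) and of all protein-coding genes (black lines) with a promoter peak in each library, using all peaks, the 7353 strongest and the 31189 strongest. The neonatal replicate 2 bar stands at 66.7% in the first and last panels, and no adult bar is above 33.3%.

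Col1a1 encodes the α1 chain of type I collagen (chromosome 11, 94936224 to 94953042, ENSMUSG00000001506.10). Its peaks covered 0, 311 and 0 bp in neonatal replicates 1, 2 and 3 and 1332, 1260 and 1699 bp in adult replicates 1, 2 and 3. Every adult library lay above every neonatal one (two-sided exact permutation of the libraries, p = 0.1, the lowest value that 3 against 3 can give; Benjamini-Hochberg adjusted p = 0.146 over 14232 genes with a peak). Adult libraries were higher without overlap at 68.1% of those genes, so Col1a1 did what most genes with a peak did. Neonatal libraries were higher without overlap at 0.267% of them, and at 0 of the 9 fibroblast genes.

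The position of the Col1a1 peaks differed between libraries. In all 3 adult libraries a peak began 398, 437 and 400 bp past the TSS, with fold enrichments over background of 3.96, 5.37 and 5.33 by the authors' peak caller. Neonatal replicate 2 had no peak there, and its promoter peak lay 2788 bp upstream with a fold of 3.29, weaker than all but 3.3% of the peaks of that library. An intergenic region about 7 kb upstream (chromosome 11, 94928606 to 94929456) was shared by neonatal replicate 2 and all adult libraries. Its peak spanned 143 bp in neonatal replicate 2 and 802, 573 and 851 bp in adult replicates 1, 2 and 3. It was wider in each adult library, as adult peaks were in general (median 359, 371 and 440 bp against 269, 334 and 264 bp). Past the 3′ end of the gene, peaks that the authors gave to Gm24877 lay within 3000 bp of Col1a1 in neonatal replicate 2 and all adult libraries. A further 198 bp peak of neonatal replicate 2 lay inside the Col1a1 gene body and was also given to Gm24877.

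Fbln1, the gene of fibulin-1 (chromosome 15, 85205949 to 85286294, ENSMUSG00000006369.14), had the most covered bases of the 9 genes over the 6 libraries. Its peaks covered 0, 1020 and 0 bp in the neonatal and 1345, 1119 and 1335 bp in the adult libraries. The adult libraries were again higher without overlap (exact permutation p = 0.1, adjusted p = 0.146 over all genes, background 68.1%). Neonatal replicate 2 came close to them and the other neonatal libraries had none.

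The Fbln1 peaks fell into a promoter region shared between ages and an internal region found in adult libraries. The promoter region (chromosome 15, 85205845 to 85206398) begins within the sequence shown above and crosses the TSS, and the peaks of neonatal replicate 2 and adult replicate 2 reach that sequence. It was present in neonatal replicate 2, where it was 554 bp wide with a fold of 7.6 and stronger than 78.7% of that library's peaks. In adult replicates 1, 2 and 3 it was 290, 312 and 268 bp wide, with folds of 3.96, 3.41 and 5.12, and stronger than 32.9%, 17.3% and 65.4% of each list. Ranks in lists of different length do not show a change. The internal region (chromosome 15, 85221032 to 85222072), about 15 kb into the gene, spans the boundary of intron 1 and exon 2. All 3 adult libraries had a peak there, with a highest fold of 7.59, 7.37 and 5.52, and no neonatal library had one. Neonatal replicate 2 had further peaks 4917 bp upstream (fold 4.81) and 2164 bp downstream (fold 4.31) of the TSS, which no adult library had. A further peak past the 3′ end, 32145 bp from the nearest annotated Fbln1 start, was assigned to Fbln1 in adult replicate 3.

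**Figure D3:**
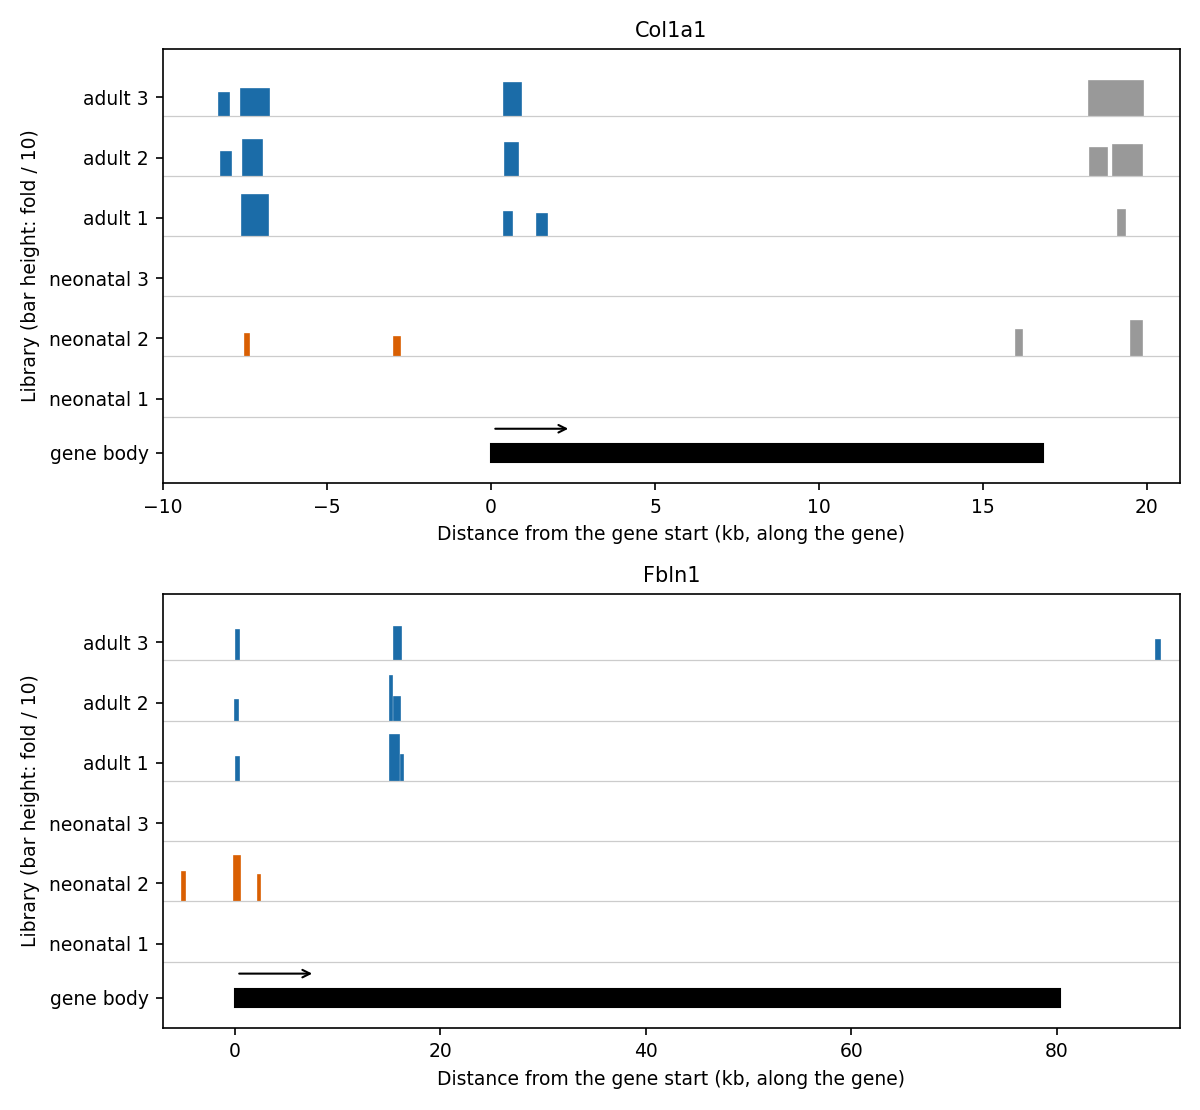
Peaks around Col1a1 and Fbln1 in each library, by distance from the gene start in kb along the gene. Coloured bars are peaks assigned to the gene (orange neonatal, blue adult), grey bars are peaks within 3000 bp of the gene body assigned to another gene, bar height is the fold divided by 10, and black marks the gene body. The peaks just past the start of Col1a1 and near 15 kb in Fbln1 are in the 3 adult libraries and in no neonatal library.

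Among all genes with a peak, Hcfc2, Zfp110 and Tti1 were closest to Fbln1 in covered bases over the 6 libraries. Their Euclidean distances in log2(bases + 1) were 0.09, 0.13 and 0.14. Hcfc2, for example, covered 0, 1042 and 0 bp in the neonatal and 1401, 1159 and 1359 bp in the adult libraries.

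The ages were also compared by the authors, site by site, and the sites with an adjusted p under 0.05 were deposited. In the authors' deposited table, 4 sites fell on 2 of the 9 genes, and all 4 were higher in adult cells. At least 1 site higher in adult is found at 48.4% of protein-coding genes in the authors' deposited table, and at least 1 higher in neonatal cells at 0.647%. The internal Fbln1 site (chromosome 15, 85221319 to 85221718) was higher in adult by log2 3.76, above 81.5% of sites, with 5.26e-06 as its adjusted p-value by the authors' deposited table. By the authors' deposited table the site at the start of Col1a1 (chromosome 11, 94936809 to 94937208) differed by log2 1.91, at an adjusted p-value of 0.0102. For the upstream intergenic Col1a1 sites, the authors' deposited table gives log2 1.57 (adjusted p = 0.00307) and log2 1.46 (adjusted p = 0.0303). All 3 Col1a1 values were under 2.41, the median over every site of the authors' deposited table, and the Fbln1 value was above it. Over the 4 sites the median log2 value was 1.74 by the authors' deposited table. No site of the authors' deposited table was assigned to the other 7 genes, and the Fbln1 promoter region was not among its sites. Past the 3′ end of Col1a1, within 3000 bp, lay a site whose gene was Gm24877. It was higher in adult by log2 2.21, with an adjusted p-value of 0.000287 by the authors' deposited table.

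Col1a2, which encodes the α2 chain of type I collagen (chromosome 6, 4505618 to 4541543, ENSMUSG00000029661.16), had 1 promoter peak in each of 2 libraries. It covered 435 bp in neonatal replicate 2 (fold 5.07) and 154 bp in adult replicate 2 (fold 3.58), and nothing in the other 4 libraries. The peaks overlapped each other and the sequence shown above. A further neonatal replicate 2 peak, given to Gm43921, lay within the first kilobase of the gene. The chains of type I collagen are made together in a fibroblast. Here both genes carried a promoter peak in neonatal replicate 2 and adult replicate 2, and Col1a1 alone in adult replicates 1 and 3.

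Igf2, Pdgfrb and Slc6a13 had peaks in neonatal replicate 2 and in no other library. This pattern of promoter peaks, singled out after the values were seen, was found at 2.14% of protein-coding genes. Igf2 encodes insulin-like growth factor 2, an imprinted growth factor made by meningeal and vascular cells of the brain (chromosome 7, 142650768 to 142666816, ENSMUSG00000048583.16). Its promoter peak was 445 bp wide with a fold of 5.57, 181 bp inside a TSS of a shorter Igf2 transcript, and stronger than 58.6% of that library's peaks. Around Igf2 the difference between libraries was broader than the gene. Within 100 kb of it neonatal replicate 2 had 8 peaks, and the other libraries had 0, except 1 in adult replicate 3. The 8 peaks were assigned to H19 (the imprinted RNA gene beside Igf2), Gm33148, Igf2, Igf2os and Ins2, with folds from 3.55 to 5.97.

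Pdgfrb encodes the other receptor for platelet-derived growth factor, a marker of pericytes that fibroblasts also express (chromosome 18, 61045127 to 61085067, ENSMUSG00000024620.11). Its promoter peak in neonatal replicate 2 was 278 bp wide and began 109 bp past the TSS, with a fold of 4.05. A 157 bp peak in intron 1 had a fold of 3.51. Both were among the weaker peaks, above 22.3% and 21.8% of that library. In the adult libraries the nearest peaks were 31, 51.9 and 51.4 kb from the gene body.

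Slc6a13, which encodes a transporter of GABA and taurine found in the meninges (chromosome 6, 121300288 to 121337721, ENSMUSG00000030108.14), had a 288 bp promoter peak with a fold of 3.55, above 8.0% of the peaks of neonatal replicate 2. A 164 bp peak in intron 2 was stronger, with a fold of 5.07. Both lay in a single library, and the nearest adult peaks were 27.5, 27.5 and 27.6 kb from the gene. Further peaks of neonatal replicate 2 inside the gene body were given to Gm24855. They were 145 and 303 bp wide, with folds of 4.31 and 3.55.

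**Figure D4:**
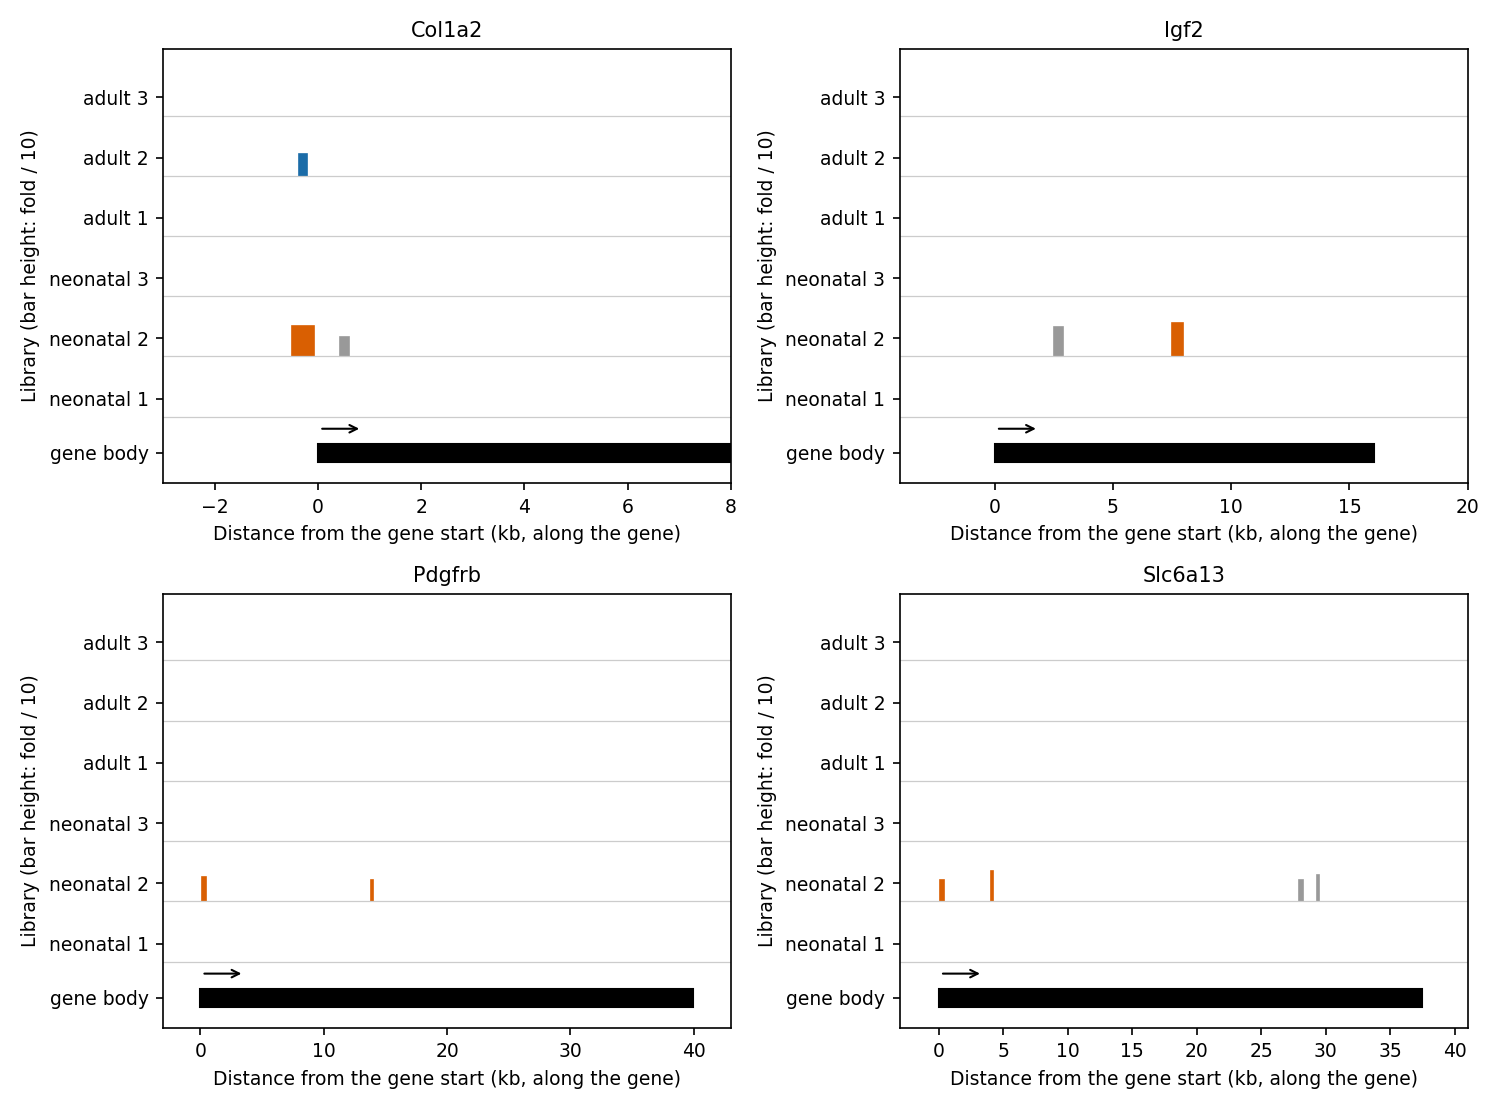
Peaks around Col1a2, Igf2, Pdgfrb and Slc6a13 in each library, by distance from the gene start in kb along the gene (bar height is the fold divided by 10, grey bars are peaks assigned to another gene within 3000 bp, Col1a2 shown to 8 kb). All peaks are in neonatal replicate 2, apart from the 154 bp Col1a2 peak in adult replicate 2.

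Col3a1 (type III collagen, chromosome 1, 45311538 to 45349706), Lum (lumican, chromosome 10, 97565501 to 97572703) and Dcn (decorin, chromosome 10, 97479500 to 97518163) had no peak in any library. The same held for 34.2% of protein-coding genes, and 37.8% had no promoter peak in any library. Dcn and Lum are neighbours, so they are not independent readings. No peak lay within 100 kb of any of the 3 genes. For Col3a1 the nearest peak was 418 kb away in neonatal replicate 2 and 444.7 to 445 kb away in the adult libraries. For Dcn it was 165.2 kb away in neonatal replicate 2 and 139.2 to 165.2 kb away in adult libraries. Absence from a list means that no peak passed the authors' limit at the depth of that library, which is unknown.

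In all, the 30 peaks formed 17 regions where peaks that overlapped were joined. Of these, 8 were found in neonatal replicate 2 alone, 6 in adult libraries alone and 3 in both: the upstream Col1a1 region and the Col1a2 and Fbln1 promoters. The adult-only regions present in all 3 adult libraries were the start of Col1a1 and the internal Fbln1 region. How often regions of other genes fall into these patterns was not tested. The counts therefore cannot show whether the fibroblast genes are unusual in this respect. Most peaks at these genes were modest: 2 of 11 in neonatal replicate 2 and 2 of 6, 3 of 7 and 4 of 6 in adult replicates 1, 2 and 3 were stronger than the median peak of their list.

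Lists of other cell types were read in the same way. OPC genes had promoter peaks in all libraries, on 12, 12 and 10 of 12 genes in neonatal and 11, 11 and 10 in adult replicates 1, 2 and 3. Pdgfra itself (chromosome 5, 75151322 to 75198206) had a promoter peak in all 6 libraries and covered 1638, 6124 and 513 bp in the neonatal and 1586, 1205 and 2119 bp in the adult libraries. Neonatal replicate 2 was the highest of the 6 for Pdgfra as well. By the authors' deposited table a Pdgfra promoter site was lower in adult cells, at log2 -1.23 and an adjusted p-value of 0.027.

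The second list of fibroblast genes had promoter peaks in each of the 6 libraries, neonatal replicates 1 and 3 included. Of 20 such genes, among them further collagens, fibulins and the transcription factors Foxc1, Twist1 and Prrx1, promoter peaks were on 5, 13 and 1 in the neonatal and on 11, 4 and 10 in the adult libraries. In neonatal replicate 1 these were Col5a1, Fbn1, Mfap4, Prrx1 and Slc22a6, and in neonatal replicate 3 it was Fbn1, named after the values were seen. No gene of this list had a promoter peak in the 3 libraries of an age and lacked it throughout the other age. In the neonatal libraries these were shares of 25%, 65.0% and 5.00%, beside backgrounds of 26.4%, 53.3% and 23.5%. The adult shares were 55.0%, 20% and 50%, beside 56.3%, 54.4% and 55.2%, so that neonatal replicate 3 and adult replicate 2 lay furthest below their backgrounds. Without neonatal replicate 2 the adult mean exceeded the neonatal mean by 5.33 genes in place of 2.00. Among the 7353 strongest peaks the direction turned. The list then had promoter peaks on 4, 3 and 1 genes in the neonatal and on 0 in each adult library. Over all peaks, adult replicate 2 was the lowest adult library, with 4 genes. It was the adult library with a Col1a2 peak, so the 2 sets of fibroblast genes did not order the adult libraries alike.

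Enzymes and chaperones of collagen processing are used by many cell types. Their promoter peaks lay on 3, 10 and 3 of 12 genes in neonatal and 11, 9 and 11 in adult libraries. Serpinh1, the collagen chaperone, named after its values were seen, covered 639, 3994 and 371 bp in the neonatal and 6086, 5802 and 7185 bp in the adult libraries. The adult shares of 91.7%, 75% and 91.7% stand beside backgrounds of 56.3%, 54.4% and 55.2%. In the same libraries the 9 fibroblast genes were below the background and the second fibroblast list was near it in adult replicates 1 and 3. No test compared the lists.

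Among genes of pericytes and smooth muscle, promoter peaks lay on 0, 5 and 0 of 12 in neonatal replicates 1, 2 and 3, and adult replicates 1, 2 and 3 had 1, 0 and 2. The 5 in neonatal replicate 2 were Abcc9, Anpep, Notch3, Myh11 and Tbx18, named after their values were seen, and the other 7 genes of the list had no promoter peak in any library. The 41.7% in neonatal replicate 2 was below the background of 53.3% there, and the shares in the other 5 libraries were below theirs. Without neonatal replicate 2 the adult mean was higher by 1.00 gene, where with it the neonatal mean was higher (adult minus neonatal -0.67). Endothelial genes had promoter peaks on 0, 2 and 0 of 12 in neonatal and on 3, 2 and 2 in adult libraries. These shares, too, were below the background of each library. Among these genes, the promoters of Pecam1 and Kdr carried peaks in each adult library and in none of the neonatal ones, as did 4.73% of protein-coding genes. Outside promoters, peaks given to Pecam1 covered 1470 bp in neonatal replicate 2. Microglial genes had promoter peaks on 0 of 12 in each neonatal library and on 1, Cx3cr1, in each adult library, again below each background. Peaks given to Cx3cr1 covered 0 bp in each neonatal and 4100, 3729 and 4053 bp in the adult libraries. The genes that follow, named after their values were seen, had peaks outside promoters only. C1qb covered 0, 261 and 231 bp in the neonatal and 160, 314 and 298 bp in the adult libraries. Ptprc and Flt1 covered 186 and 139 bp in neonatal replicate 2 alone. Tie1 covered 0 bp in each neonatal and 169, 939 and 1279 bp in the adult libraries. Cldn5 covered 0, 259 and 0 bp against 229, 666 and 513 bp. Cdh5 covered 0 bp in each neonatal library against 152, 0 and 222 bp. Adult libraries were higher without overlap at 68.1% of genes with a peak. Whether cells of these types, the longer list of neonatal replicate 2 among neonatal libraries, or its depth had a part in the peaks at the fibroblast genes was not tested.

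**Figure D5:**
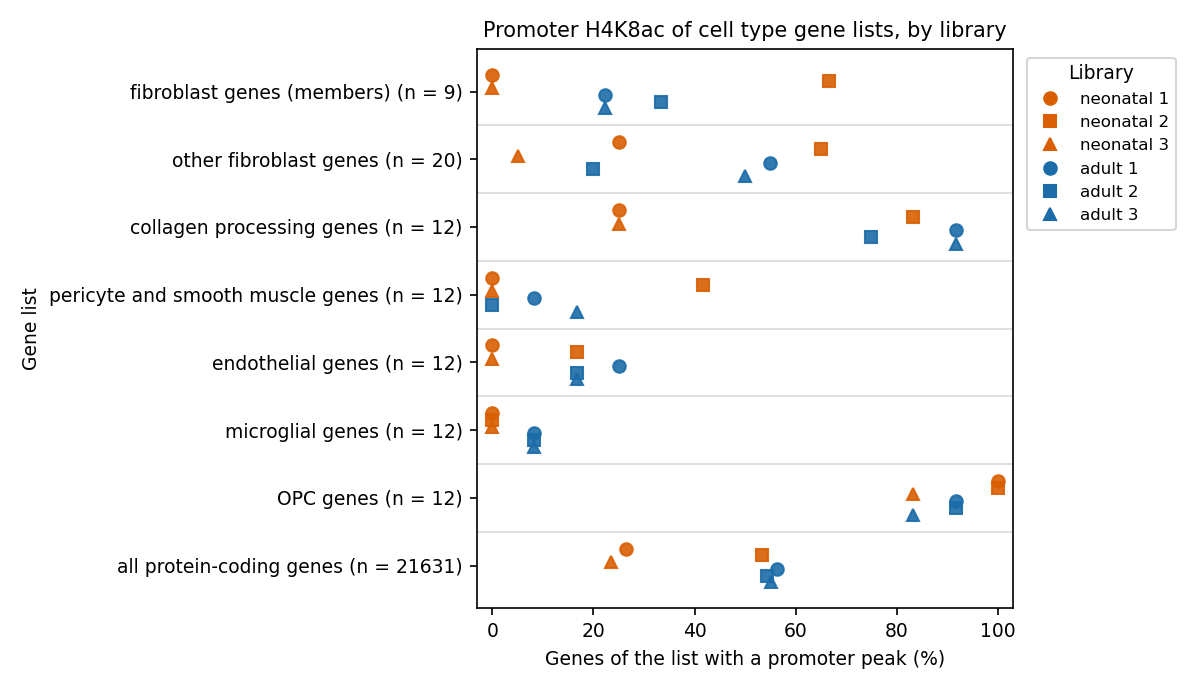
Percent of the genes of each list with a promoter peak, by library (orange neonatal, blue adult; circle, square and triangle for replicates 1, 2 and 3). Neonatal replicate 2, the orange square, stands at 66.7% for the 9 fibroblast genes and 41.7% for pericyte and smooth muscle genes, where neonatal replicates 1 and 3 are at 0, and OPC genes are at 83.3% or more in every library.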

How the data were processed

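H4K8ac peak lists of 3 neonatal and 3 adult libraries and a table of differential sites were used. Each deposited list belongs to 1 library and gives, per the file headers, a fold over background (a ratio), −log10 of the p-value and q-value, a score (10 times −log10 q, not used here) and the gene assigned by the authors to the peak. The authors' deposited table of sites, which has no header, was read as log2 fold changes between the ages with their p-value, raw and adjusted. Positive values were read as higher in adult cells, because 100.0% of positive sites overlapped an adult peak and 27.9% a neonatal one, against 37.0% and 98.4% of negative sites. Per the submitters' processing notes, GRCm38, Bowtie2 2.4.5, MACS2, DiffBind and ChIPseeker were used; settings are not given in the sources used here.

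Peak starts were moved to count from 1. Protein-coding genes were those of RefSeq (GRCm38.p6) on chromosomes 1 to 19 and X, matched by symbol; all 9 genes matched. Covered bases per gene, as log2(bases + 1), were tested between ages by exact permutation of the libraries (two-sided, 20 arrangements), with Benjamini-Hochberg adjustment over all genes. Replicates are labelled as biological. A site took the gene of the deposited peak that shared most bases with it. By rule, named genes were the 9, Pdgfra, and list genes with a promoter peak in all libraries of one age only. Other genes were named to describe a list or a neighbourhood, or after their values were seen. The 3 genes closest to the best-covered gene, and genes given a peak within 3000 bp, were also named. The 9 genes and the 6 marker lists were chosen with earlier results of these data known. Alternatives were peak strength, q-value limit, assignment, merging, omission of single libraries and replicate pairing. The permutation code was tested on simulated data. Python 3.11.15, numpy 2.4.6, pandas 2.3.3 and matplotlib 3.10.9 were used.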

Additional observations from a re-analysis of the deposited data

How the results depend on the processing

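The number of the 9 genes with a promoter peak, adult minus neonatal, was 0.33, and it was -5.00 among the 31189 strongest peaks, where neonatal replicate 2 was the only neonatal library with a long enough list. With 1 library left out it ranged from -0.67 (without neonatal replicate 1 or 3) to 2.33 (without neonatal replicate 2), and it was 0.00 without adult replicate 2. Among the 7353 strongest peaks it was -0.33, so the data give it no stable direction. Peaks per 10000 ranged from -0.91 to 0.86 in the same way. The 2 genes higher in adult libraries without overlap, Col1a1 and Fbln1, were the same with any 1 library left out and by position, and 0 remained among the 7353 strongest peaks. Of 4 sites of the authors' deposited table, 2 passed an adjusted p under 0.005. The replicate numbers did not pair the libraries (correlations of -0.017, 0.027 and 0.042 for equal numbers). With the replicate block, the same 2 genes were higher in the adult library of all 3 pairs, with a sign-flip p of 0.25, the smallest possible, and 10220 genes in place of 9699 over all genes. The other alternatives moved no value by more than the spread between libraries, or no count by over 1.5 times.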
